A study of Mus musculus with 24 samples.

Results

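The effect of deleting the major urinary protein (Mup) gene cluster that is common to males and females was examined in the livers of all 24 mice of the series, 12 homozygous Mup knockout (KO) mice against 12 wildtype (WT) mice. One model was fitted in which the genotype effect was the same in both sexes and sex was a covariate, without an interaction. The 22 genes named Mup and a number, which lie on chromosome 4 between positions 59956804 and 62150863 (GRCm38), were left out, since their loss defines the genotype. Of the 25724 other genes listed, 12332 passed the filter on low counts and were tested. The groups were 6 male WT (mWT), 6 male KO (mKO), 6 female WT (fWT) and 6 female KO (fKO) mice of strain background C57/BL6N, all aged 12 weeks. The KO line was made with CRISPR/Cas9 guides on both sides of the cluster and goes back to 1 male founder, so any other difference that this founder passed on with the deletion cannot be told apart from it. The homozygous KO mice came from an intercross of heterozygous parents, and whether the KO and WT mice sequenced were littermates is not given in the sources used here. All had free access to standard chow, were fasted before a microCT scan under anaesthesia, and were killed by cardiac puncture on leaving the scanner. The clock time at which each mouse was killed is not given in the sources used here.

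Mups are small lipocalins that the liver of rodents secretes in large amounts, more in males than in females. They pass into the urine, where they bind volatile pheromones in a barrel-shaped pocket, and they also circulate in plasma and have been linked to glucose and lipid metabolism. Their transcription in the liver is driven by growth hormone through STAT5. A KO effect shared by males and females is therefore an effect on livers that lost very different amounts of Mup transcript.

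Mup reads made up 1.70% to 3.68% of all counts in mWT and 0.344% to 0.555% in fWT mice, against at most 11 reads in a KO library. The Mup genes are closely similar in sequence, and how reads with several matches were counted is not given, so these shares are uncertain. Total counts ranged from 15361901 to 26261394 per mouse, so that 3 counts, taken as the smallest detectable amount, corresponded to 0.114 to 0.195 CPM, the counts scaled to a common library size. Such a limit covers counting error alone. The 6 defining hepatocyte markers, among them albumin, together gave 91300 to 147000 CPM, as a liver label asks for. Of these 6, 1 had an unadjusted p-value under 0.01 for the KO effect in edgeR's quasi-likelihood test, Serpina1c, whose close paralogs may share its reads (log2 fold change 0.19). Of the tested markers of 9 other cell types, 3 of which had only 1 tested marker, 0 had an unadjusted p-value under 0.01 or under 0.05, and no neutrophil marker passed the filter. The summed Kupffer cell and macrophage markers had a median of 123 CPM in mWT and 110 CPM in mKO, and of 192 CPM in fWT and 151 CPM in fKO mice, with overlapping ranges. In whole liver, fewer cells of a type and less RNA per cell cannot be told apart.

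Before the KO effect is described, 2 libraries have to be named. The fKO mice 2 and 3 stood apart from the other fKO mice in genes of the circadian clock. Arntl, which encodes the clock activator BMAL1, was at 17.1 and 15.6 CPM in these 2 mice and at 0.59 to 1.37 CPM in the other fKO mice. They were also the most similar pair of mice within any group (chi-square per gene 8.13, next pair 15.2), although they differed by more than sampling noise. The main counts are therefore given below with and without them.

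The model with one common KO effect called many genes, most of them with small differences. At the cut-off of the study, an unadjusted p-value under 0.01 in edgeR's quasi-likelihood test, 320 genes were called, which is 2.59% of the genes tested, where 1% would fall under the cut-off if no gene differed. Of these, 186 (1.51%) were higher and 134 (1.09%) lower in KO mice. After Benjamini-Hochberg adjustment, 0 genes had an adjusted p-value under 0.05, and the smallest adjusted p-value was 0.0709, while 1155 genes (9.37%) had an unadjusted p-value under 0.05. With DESeq2 in place of edgeR, 405 genes were called and 18 had an adjusted p-value under 0.05, with no adjusted p-value for 7890 genes. Correcting for the length and GC content of transcripts gave 217 higher and 101 lower genes. That fit also used the newer deviances of edgeR 4, which without the correction gave 191 higher and 145 lower genes. Leaving out fKO mice 2 and 3 left 165 called genes (1.34%), 82 higher and 83 lower, of which 136 were among the 320.

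The differences were small in size. The median log2 fold change was 0.22 among the higher and −0.28 among the lower called genes, against −0.002 over all genes tested, and 288 of the 320 called genes differed by less than 0.5 on the log2 scale. More than 1 on that scale separated KO from WT in 4 called genes. These were Zfp37 (2.17), the fatty acid elongase Elovl3 (1.17), Arntl (1.50) and Cyp3a41b (−1.25), the last of which is named for its value alone. Cyp3a41b is a female-biased cytochrome P450 with close paralogs, so that its counts are uncertain, and it was at 0 to 0.0631 CPM in all males. In fKO mice it ranged from 2.01 to 7.72 CPM and in fWT mice from 1.67 to 14.8 CPM, so that these groups overlapped.

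**Figure D1:**
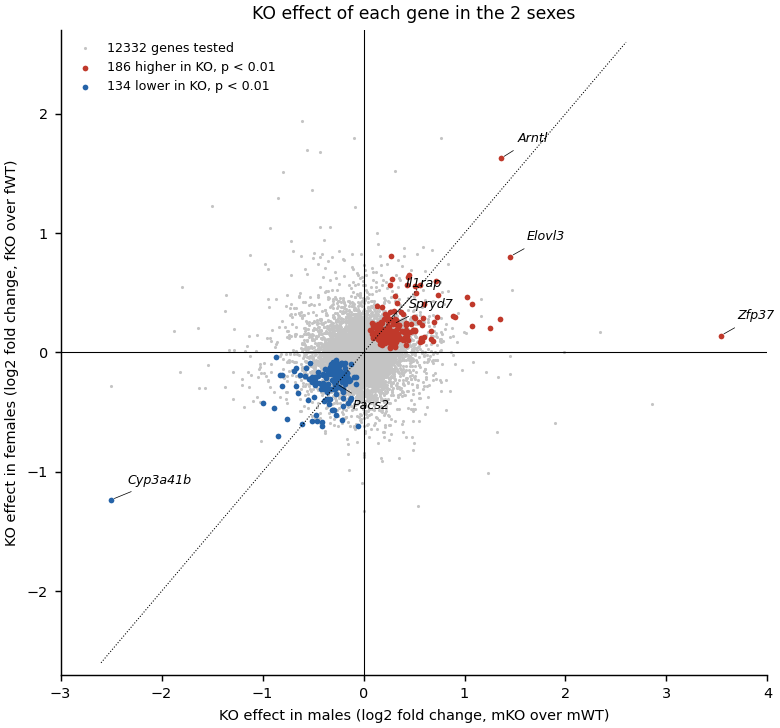
Each point is one of the 12332 genes tested, with its log2 fold change between mKO and mWT on the horizontal and between fKO and fWT mice on the vertical axis, red or blue where the common KO effect was called and with a dotted line where both sexes are equal. The 320 called genes lie in the lower left and upper right, and 225 of them lie nearer to the horizontal than to the vertical axis.

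How far a common effect describes the 2 sexes was examined in a model with 4 group means. All 320 called genes had the same sign in males and females, as the choice of these genes favours, and the male effect was the larger one in 225 of them. Taken for each sex in that model, the KO effect was called for 415 genes (3.37%) in males and 85 genes (0.689%) in females. The common effect kept 142 of the 415 male calls and 33 of the 85 female calls. It added 149 genes that were called in neither sex alone, 85 higher and 64 lower in KO mice. Only 4 genes were called in both sexes as well as in the common fit, namely Il1rap, Spryd7, Pacs2 and Plekhg6. Across all genes tested, the male and female log2 fold changes, which come from separate mice, correlated with a Pearson's r of 0.0703 and a Spearman's rho of 0.104 (n = 12332 genes, which are not independent replicates), and 53.3% of the genes had the same sign in both. Without fKO mice 2 and 3, Pearson's r was −0.179 and 44.8% of the genes had the same sign. The calls were then 509 in males and 121 in females (0.985% of 12279 genes), and the common effect held 73 genes called in neither sex, 31 higher and 42 lower, and 3 called in both.

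The difference between the sexes was tested directly as an interaction. It was called at an unadjusted p-value under 0.01 for 145 genes (1.18%), and 1 (0.00811%), Zfp37, had an adjusted p-value under 0.05 in edgeR's quasi-likelihood test. Among the 320 called genes, the interaction had an unadjusted p-value under 0.01 in 4 (1.25%), a share near that of all genes, namely Zfp37, Glo1, Ripk4 and Fgfr1. Without fKO mice 2 and 3, 473 genes reached that cut-off for the interaction.

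The mice were also compared by overlap alone, which does not measure the size of a difference. The 6 mKO mice did not overlap with the 6 mWT mice in 119 genes (0.965%), and fKO did not overlap with fWT mice in 29 genes (0.235%). In 0 genes were both sexes free of overlap in the same direction. Of the 320 called genes, 42 had no overlap in males and 10 in females. Without fKO mice 2 and 3, the 4 remaining fKO mice did not overlap with fWT mice in 114 genes (0.928%), where fewer mice overlap less often by construction, and both sexes were again free of overlap in the same direction in 0 genes.

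The interleukin-1 receptor accessory protein (Il1rap, ENSMUSG00000022514, chromosome 16, 26581704 to 26730117) had the smallest p-value. It encodes the shared co-receptor that receptors of the interleukin-1 family need for signalling. Expression ranged from 167 to 198 CPM in mWT (median 180) and from 197 to 250 CPM in mKO mice (median 211). In females it ranged from 114 to 141 CPM in fWT (median 120) and from 138 to 172 CPM in fKO mice (median 145). Only the edges of the groups overlapped, since 5 of 6 mKO and 3 of 6 fKO mice exceeded every WT mouse of their sex. The common KO effect was a log2 fold change of 0.26 with a standard error of 0.0499 (edgeR's quasi-likelihood test, unadjusted p = 1.34e-05, Benjamini-Hochberg adjusted p = 0.0709). It was 0.26 in males and 0.27 in females, and the interaction had an unadjusted p-value of 0.858. Over all 37 alternative ways of processing, its log2 fold change stayed between 0.24 and 0.31 and its adjusted p-value between 0.00051 and 0.275.

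Spryd7, a gene named for its SPRY domain (ENSMUSG00000021930, chromosome 14, 61531993 to 61556886), differed by a similar amount at a lower level of expression. It ranged from 23.9 to 29.3 CPM in mWT (median 26.3), from 28.3 to 35.7 CPM in mKO (median 32.6), from 20.2 to 24.3 CPM in fWT (median 22.6) and from 22.4 to 29.3 CPM in fKO mice (median 27.2). Of the KO mice, 5 males and 4 females exceeded every WT mouse of their sex. On the log2 scale this was a difference of 0.26 with a standard error of 0.0506 (edgeR, unadjusted p = 1.72e-05, adjusted p = 0.0709), made of 0.29 in males and 0.24 in females.

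Zfp37, a zinc finger gene on the minus strand of chromosome 4 (62189540 to 62231047), the nearer end of which lies 38677 bp beyond the last Mup gene, had the largest common log2 fold change of all called genes, and it was called in males only. The mKO mice ranged from 2.56 to 6.33 CPM (median 4.28). The medians of the other groups were 0.406 (mWT), 0.353 (fWT) and 0.397 CPM (fKO), of which the lowest values lie near the smallest detectable amount. All 6 mKO mice exceeded all mWT mice, while the range of the fKO mice (0.213 to 0.712 CPM) lay within that of the fWT mice (0.134 to 0.718 CPM). Its common value of 2.17 on the log2 scale, with a standard error of 0.405 (edgeR, adjusted p = 0.0709), lies between the male and female values. Similar zinc finger genes may share reads with Zfp37, and the sources used here do not say how such reads were counted. Around the cluster, 22 other genes within 1 Mb were tested, and edgeR's test called 0 of them, with 3 reaching an unadjusted p-value under 0.05. They spanned log2 fold changes of −0.12 (Fkbp15) to 0.18 (Hsdl2). Chromosome 4 as a whole held 20 called genes of 751 tested (2.66%), within the range of the chromosomes (1.17% to 4.26%).

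The other leading higher genes had adjusted p-values of 0.321. Lipa, the lysosomal acid lipase that hydrolyses cholesteryl esters and triglycerides taken up by the cell, had a median of 225 CPM in mWT and 276 CPM in mKO, and of 242 CPM in fWT and 283 CPM in fKO mice. The common difference was 0.28 on the log2 scale, with a standard error of 0.0647, and 5 mKO and 4 fKO mice exceeded all WT mice of their sex. Car8, a carbonic anhydrase-related protein without enzyme activity, had medians of 87.2 CPM in mWT, 112 CPM in mKO, 123 CPM in fWT and 136 CPM in fKO mice, a log2 fold change of 0.26. The genotypes overlapped in both sexes for Car8 and Lipa. Hprt, the purine salvage enzyme on the X chromosome, differed least among the leading genes (0.19), yet its mKO mice (67.2 to 77.2 CPM) did not overlap with the mWT mice (52.5 to 66.8 CPM). Pgrmc2, a membrane-bound haem-binding protein, had a log2 fold change of 0.24, and Gucd1 one of 0.25.

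Several of the leading higher genes were without overlap in males. The metal ion transporter Slc39a8 ranged from 26 to 33.8 CPM in mKO and from 18.1 to 24.2 CPM in mWT mice, without overlap, while fKO (26.4 to 41.5 CPM) and fWT mice (24.9 to 33.7 CPM) overlapped. It differed by 0.51 in males and 0.18 in females on the log2 scale, with an unadjusted interaction p-value of 0.0433 in edgeR's test. Glo1, the glyoxalase that detoxifies methylglyoxal, differed by 0.56 in males and 0.08 in females, with an unadjusted interaction p-value of 0.000959, and its common value of 0.32 lies between these. Glt28d2 had no overlap in males either, with 5.69 to 7.88 CPM in mKO and 3.88 to 5.43 CPM in mWT mice.

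Elovl3 elongates long saturated and monounsaturated fatty acids and is expressed in the liver mainly in males. It ranged from 78.9 to 377 CPM in mWT (median 129) and from 283 to 752 CPM in mKO mice (median 469). In females the level was far lower, from 2.88 to 8.15 CPM in fWT (median 5.8) and from 3.43 to 18.2 CPM in fKO mice (median 8.9). The genotypes overlapped in both sexes, with 4 mKO and 3 fKO mice above all WT mice of their sex. The common difference was 1.17 on the log2 scale with a standard error of 0.292 (edgeR, adjusted p = 0.321), with 1.45 in males and 0.80 in females and an unadjusted interaction p of 0.274.

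Among the leading lower genes, Pacs2 and Plekhg6 differed by nearly the same amount in both sexes. Pacs2 encodes a sorting protein that acts at contacts between the endoplasmic reticulum and mitochondria. It ranged from 18.7 to 24.1 CPM in mWT (median 19.7), from 14.9 to 19.1 CPM in mKO (median 17), from 16.6 to 24.3 CPM in fWT (median 18.6) and from 14.5 to 18.5 CPM in fKO mice (median 16.3). KO mice lay below every WT mouse of their sex in 5 of 6 males and 4 of 6 females, and males differed by −0.27 and females by −0.26 on the log2 scale. Plekhg6 differed by −0.38 in males and by −0.40 in females. Its medians were 12 CPM in mWT and 12.1 CPM in fWT against 8.94 (mKO) and 8.09 CPM (fKO), and the genotypes overlapped, with fKO mouse 1 at 12.8 CPM.

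The other leading lower genes encode proteins of the cytoskeleton, of membrane traffic and of transcription, among others. Tns3, a tensin of focal adhesions (log2 fold change −0.29), Rhob, a small GTPase of endosomes (−0.25), and Sipa1l2, a regulator of Rap GTPases (−0.50), were each lower than all WT mice of their sex in at least 3 KO mice of each sex. Nfic, a transcription factor of the nuclear factor I family, had medians of 75.3 CPM in mWT and 56.9 CPM in mKO, and of 62.6 CPM in fWT and 58.1 CPM in fKO mice, a common log2 fold change of −0.31. Prss8, the membrane-anchored protease prostasin, had the largest difference of this group (−0.60) at a low level, with medians of 5.34 CPM in mWT and 3.46 CPM in mKO, and of 2.69 CPM in fWT and 2.13 CPM in fKO mice. The sorting nexin Snx8 (−0.33) and the desaturase family member Fads3 (−0.39) were the only leading genes without overlap in females, where fKO mice were at 5.6 to 8.83 CPM and fWT mice at 9.28 to 12.5 CPM for Snx8. Tnks1bp1 (−0.34), which binds tankyrase, was without overlap in males. The intraflagellar transport gene Traf3ip1 (−0.30) and the apoptosis effector Bak1 (−0.32) completed the leading lower genes.

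**Figure D2:**
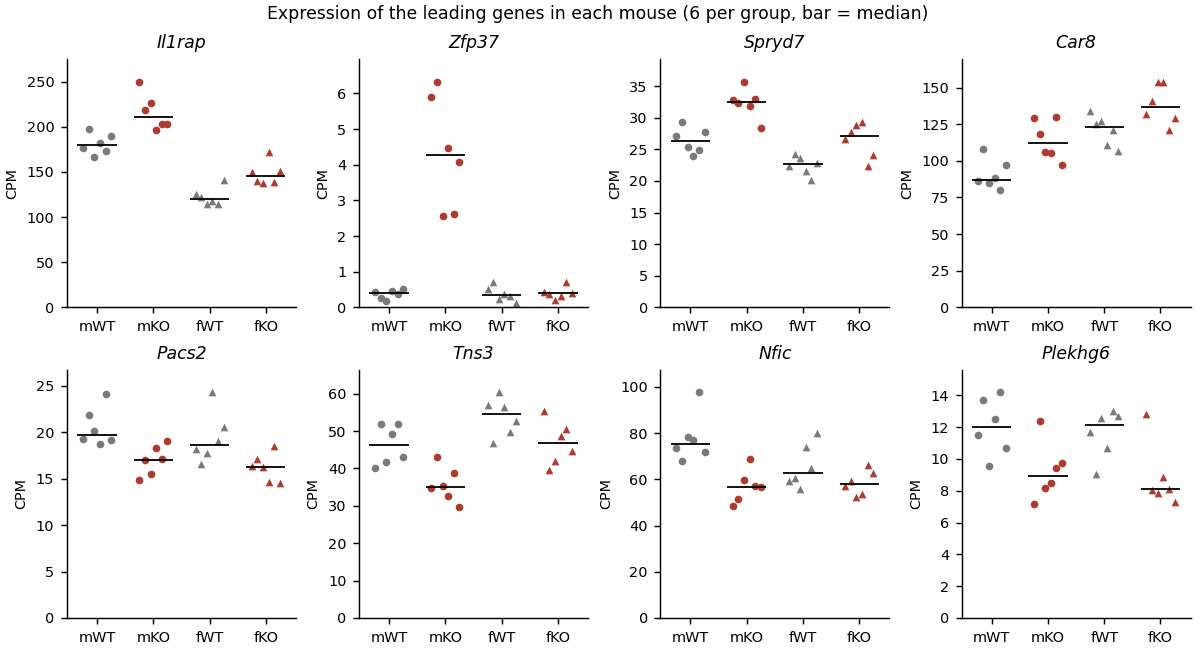
Each panel shows one gene in CPM scaled by library size on an axis from 0, with circles for males, triangles for females, grey for WT, red for KO and a bar at the median of the 6 mice of a group. The 4 higher and 4 lower genes of smallest p are shown, and KO and WT mice of a sex overlap in every panel except for Zfp37 in males.

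Called genes were not spread evenly over levels of expression. Among the 2467 genes with the highest mean expression, 92 were called higher (3.73%) and 4 lower (0.162%). Among the 7399 genes with the lowest, 52 were called higher and 98 lower. Without fKO mice 2 and 3, 45 were called higher and 3 lower among the 2456 genes of highest expression, and 20 higher and 70 lower among the 7367 of lowest. With the genes divided by expression into 5 bins of equal size, the median log2 fold change went from −0.04 in the lowest to 0.03 in the highest bin. Over all genes the log2 fold change had a Spearman's rho of 0.201 with mean expression, of −0.25 with transcript GC content and of −0.0695 with exon length. The scaling factors of the libraries moved with genotype too, at 0.944 to 1.02 in KO and 0.988 to 1.06 in WT mice. The part of these properties in the called genes was not tested beyond the correction for length and GC content given above.

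Genes of the hepatic clock were among the called genes. The core clock is a loop in which BMAL1 and CLOCK activate the Per and Cry repressor genes through E-boxes, REV-ERB and ROR proteins act on Arntl through ROR elements (RORE), and PAR bZIP factors such as DBP act through D-boxes, so that many liver genes cycle over the day. Of the 22 tested genes of the clock list, 1 was called higher (Arntl) and 1 lower (Cry2), beside 1.51% and 1.09% of all genes. At an unadjusted p-value under 0.05 the counts were 2 higher and 5 lower, beside 5.26% and 4.1% of all genes. The median log2 fold change of the 22 genes was −0.23, against −0.002 over all genes, with −0.33 in males and −0.11 in females.

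Arntl ranged from 0.646 to 6.28 CPM in mWT (median 2.14) and from 3.41 to 10.3 CPM in mKO mice (median 6.53). In females it ranged from 0.665 to 4.35 CPM in fWT (median 1.68) and from 0.59 to 17.1 CPM in fKO mice (median 1.34), with both high values from fKO mice 2 and 3. The log2 fold change was 1.50 with a standard error of 0.506 (edgeR, unadjusted p = 0.00736, adjusted p = 0.352), and 0.54 without these 2 mice (unadjusted p = 0.221). The partner gene Clock, with a log2 fold change of 0.40, had medians of 49.1 CPM in mWT and 67 CPM in mKO, and of 37 CPM in fWT and 34.8 CPM in fKO mice.

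Of the repressor genes, Cry2, Per2 and Per3 were lower in KO mice at an unadjusted p-value under 0.05, and only Cry2 was called. Cry2 had medians of 49.5 CPM in mWT and 40.1 CPM in mKO, and of 47.2 CPM in fWT and 42.4 CPM in fKO mice, a log2 fold change of −0.24 (unadjusted p = 0.00805). Per2 (−0.64) was at 11.7 to 23.2 CPM in mKO and 21 to 47.5 CPM in mWT mice, and Per3 (−0.71) at 12.1 to 38 CPM in mKO and 27.3 to 57.7 CPM in mWT mice. In both genes fKO mice 2 and 3 were the lowest females, and the other fKO mice lay within or above the range of fWT mice. The nocturnin gene Noct (−0.54) and the P450 reductase gene Por (−0.45) were also lower at an unadjusted p-value under 0.05. Nr1d1, which encodes REV-ERB alpha, had a log2 fold change of 0.30 with a standard error of 0.334. The repressor genes Per1 (−0.22), Nr1d2 (−0.09) and Cry1 (−0.07) were not called either, with unadjusted p-values of 0.252 to 0.664 in edgeR's test.

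The promoters of Arntl and Per3 are shown because these genes lay at the opposite ends of the list, with the searched motifs in capitals. They are taken from RefSeq (GRCm38.p6) and run from 250 bases before to 50 bases after a transcription start. For Arntl, the second of its 2 listed starts is shown (chr7:113207261-113207560, plus strand), with the RORE letters TAGGTCA beginning 31 bases after the start. The window of the first start, not shown, holds none of the searched motifs. For Per3 (chr4:151044616-151044915, minus strand), the D-box letters TTATGTAA begin 205 and 158 bases before the start.
Arntl: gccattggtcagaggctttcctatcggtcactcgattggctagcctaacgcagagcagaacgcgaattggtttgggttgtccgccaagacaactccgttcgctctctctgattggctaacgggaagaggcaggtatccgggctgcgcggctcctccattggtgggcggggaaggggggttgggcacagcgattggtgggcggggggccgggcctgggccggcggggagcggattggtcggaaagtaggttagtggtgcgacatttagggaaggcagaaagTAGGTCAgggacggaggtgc
Per3: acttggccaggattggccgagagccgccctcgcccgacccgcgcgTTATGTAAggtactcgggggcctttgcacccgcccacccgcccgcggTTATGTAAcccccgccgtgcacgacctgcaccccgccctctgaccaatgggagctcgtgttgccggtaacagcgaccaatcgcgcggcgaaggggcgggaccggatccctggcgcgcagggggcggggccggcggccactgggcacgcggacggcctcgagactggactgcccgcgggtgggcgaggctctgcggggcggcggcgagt
The letters, searched on both strands and for each motif on its own, occur in the promoters of 2.97% (RORE), 1.11% (D-box) and 8.09% (E-box, CACGTG) of all 27025 genes in the table. Among the 9522 of these that were tested here, the shares were 2.5% (RORE), 0.714% (D-box) and 11.8% (E-box). Of the 19 clock list genes with a promoter there, 2 held the RORE (Arntl and Nfil3), 1 the D-box and 6 the E-box. A match is a description of these letters and no evidence of binding.

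**Figure D3:**
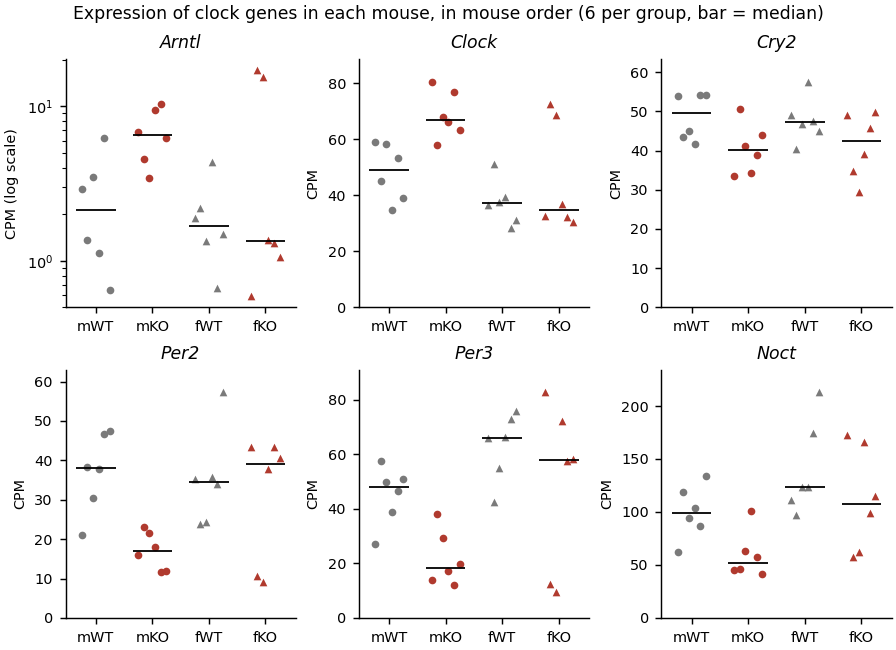
Each panel shows one clock gene in CPM (Arntl on a log axis, the others from 0), with points in the order of the mouse numbers, circles for males, triangles for females, grey for WT, red for KO and a bar at the median of the 6 mice. The red triangles of fKO mice 2 and 3 are the highest females in Arntl (17.1 and 15.6 CPM) and Clock and the lowest in Per2 and Per3.

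To set the common effect beside the state of the clock, the 22 clock genes were summarized as a clock index without unit, the first principal component of their log2 CPM centred within sex, which took up 68.7% of their variance. It rises with Arntl and was −0.04 to 2.95 in mKO and −3.12 to −0.75 in mWT mice, without overlap. It was −2.62 to 6.64 in fKO and −2.42 to 0.53 in fWT mice. The index was defined after seeing the data and is built from genes whose KO effect is itself measured, so a KO effect on the clock genes and a difference in clock state between the mice cannot be told apart. With the index as a covariate, 140 genes (1.14%) were called, 56 higher and 84 lower, of which 64 were among the 320, and the index itself had an adjusted p-value under 0.05 in 793 genes. The log2 fold changes of the 320 genes kept their sign in 319 and shrank from a median size of 0.251 to 0.168, while the median standard error over all genes went from 0.0813 to 0.0893. The fit with the index also used the newer deviances of edgeR 4, which without the index gave 336 called genes. Its counts, standard errors and p-values therefore differ from the reported model in 2 settings. Of the 24 leading genes, 14 still had an unadjusted p-value under 0.01, and without fKO mice 2 and 3 all 24 had one. Their choice by smallest p-value in these same mice favours this. The 10 that lost it with the index were Elovl3, Lipa, Slc39a8, Glo1, Prss8, Pgrmc2, Tnks1bp1, Snx8, Glt28d2 and Gucd1. On the log2 scale, the index took Slc39a8 from 0.34 to 0.17, Glt28d2 from 0.40 to 0.20, Prss8 from −0.60 to −0.33, Tnks1bp1 from −0.34 to −0.20, Lipa from 0.28 to 0.17 and Glo1 from 0.32 to 0.20, each by more than a factor of 1.5. Gucd1 and Pgrmc2 were at 0.17 and 0.18 with the index, and Snx8 was at −0.25. Il1rap with the index had a log2 fold change of 0.31 and an adjusted p-value of 0.0395 in edgeR's quasi-likelihood test with these deviances. The log2 fold change was 0.77 for Elovl3 (unadjusted p = 0.0217) and −0.24 for Arntl (unadjusted p = 0.331).

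Lists of genes of liver metabolism held 0 to 2 called members each. Beside the 2.59% of all genes, 2 of 41 tested target genes of the fatty acid receptor PPAR alpha were called, both higher. They were the monoacylglycerol acyltransferase Mogat1 (0.246 to 0.874 CPM in mWT, 0.661 to 1.48 CPM in mKO, 0.191 to 0.537 CPM in fWT and 0.114 to 0.634 CPM in fKO mice) and the lipid droplet protein Plin2 (medians of 275 CPM in mWT, 406 CPM in mKO, 262 CPM in fWT and 274 CPM in fKO mice). Their log2 fold changes were 0.90 and 0.34. The list's median of 0.11 was made of 0.24 in males and −0.04 in females, and Ppara itself had −0.31 in males and 0.25 in females, a common value of −0.03 with an unadjusted interaction p of 0.0124.

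In the list of de novo lipogenesis and triglyceride synthesis, 2 of 29 genes were called higher, Elovl3 and Insig2, an anchor that holds the SREBP transcription factors in the endoplasmic reticulum. Insig2 ranged from 247 to 450 CPM in mKO and from 76.1 to 302 CPM in mWT mice, and had medians of 132 CPM in fWT and 131 CPM in fKO mice. Its log2 fold change of 0.65 became 0.21 with the clock index. Of 25 cholesterol synthesis genes, 0 were called by edgeR or DESeq2 and 1 had an unadjusted p-value under 0.05, and their medians were −0.07 in males and 0.27 in females. Of 24 bile acid genes, the conjugating enzyme Baat was called higher (0.15), while DESeq2 called 3 and the length and GC correction 4. Cyp7a1, the rate-limiting enzyme of bile acid synthesis, was not called (−0.99, standard error 0.378, unadjusted p = 0.0162), with medians of 360 CPM in mWT, 110 CPM in mKO, 405 CPM in fWT and 328 CPM in fKO mice.

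The stress response lists held 0 to 2 called members each, to be read beside the 2.59% of all genes. Of 28 targets of NRF2, the regulator of the antioxidant response, the sulfiredoxin Srxn1 (0.21) and Gclc (0.35), the catalytic subunit of the first enzyme of glutathione synthesis, were called higher. At an unadjusted p-value under 0.05, 5 of the 28 were higher, beside 5.26% of all genes, and DESeq2 called 4. Srxn1 did not overlap in males (42.2 to 49 CPM in mKO, 31.1 to 39.5 CPM in mWT mice), and Gclc overlapped in both sexes. With the clock index, Srxn1 had an unadjusted p-value of 0.015 and Gclc one of 0.202, at 0.17 and 0.15 on the log2 scale. Nfe2l2, which encodes NRF2, differed by 0.02 on the log2 scale with a standard error of 0.088. Of 27 rows of the integrated stress response list, 2 were called higher, both listed under the symbol Ddit3 (CHOP). These 2 identifiers overlap at one locus on chromosome 10, so their counts are uncertain and are no independent measurements, and the log2 fold changes were 0.45 and 0.55. In the list of the unfolded protein response and secretory pathway, 0 of 57 genes were called by edgeR or DESeq2, and 0 had an unadjusted p-value under 0.05 in edgeR.

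In the common fit, genes of secreted plasma proteins lay slightly above 0 on average. Their called members are to be read beside the 2.59% of all genes. The 3 fibrinogen chain genes, which lie side by side on chromosome 3, were the called members of the 28 acute phase genes, Fgg (0.29), Fga (0.29) and Fgb (0.23). Fgg had medians of 3080 CPM in mWT and 3750 CPM in mKO, and of 3470 CPM in fWT and 4110 CPM in fKO mice, and 3 KO mice of each sex exceeded all WT mice of that sex. Of 21 other lipocalins and carrier proteins, the vitamin D binding protein Gc (0.13) was called higher, and of 16 apolipoproteins Apoc2 (0.25), the activator of lipoprotein lipase. At an unadjusted p-value under 0.05, 7 of the 16 apolipoprotein genes were higher and 0 lower, beside 5.26% and 4.1% of all genes. DESeq2 called 3 of the 16, the length and GC correction 4 and the model with the clock index 0. Apoa2, a structural protein of high-density lipoprotein, was not called (0.14, unadjusted p = 0.0265). It was at 5320 to 6450 CPM in mKO and 4290 to 5160 CPM in mWT mice, without overlap, a male log2 fold change of 0.31, against −0.02 in females (interaction in edgeR's test, unadjusted p = 0.00597, adjusted p = 0.803). The median log2 fold changes of these 3 lists were 0.15, 0.11 and 0.10. In males the medians were 0.04, 0.12 and 0.185, and in females 0.15, 0.09 and −0.003. The 3 lists consist of abundant transcripts, and the bin of highest expression had a median of 0.03.

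The proteasome had the most called members of any list in the reported model and with DESeq2 (6 in each). With the length and GC correction it had 3, against 4 for the apolipoprotein and 4 for the bile acid list. Of 38 subunit genes, 6 were called higher and 0 lower, beside 1.51% and 1.09% of all genes. A positive log2 fold change was found in 35, with a list median of 0.09 (0.15 in males and 0.02 in females). The called members were Psma1 (0.18) and Psma5 (0.16) of the outer ring of the core particle and Psmd1 (0.14), Psmd11 (0.15), Psmd14 (0.16) and Psmc6 (0.16) of the regulatory particle. Psma1 had medians of 92.3 CPM in mWT, 108 CPM in mKO, 86.4 CPM in fWT and 95.1 CPM in fKO mice, and only Psmd14 was without overlap, in males (54 to 57.8 CPM against 45.7 to 53.7 CPM). Of the 38 genes, 28 were in the bin of highest expression, in which 3.73% of genes were called higher and 0.162% lower. With the clock index, the 6 had unadjusted p-values of 0.0327 to 0.276 and the list's median was 0.06. Without fKO mice 2 and 3 these were 0.0163 to 0.0528, with a median of 0.08.

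The remaining lists had 0 to 2 called members, to be read beside the 2.59% of all genes. Of 32 genes of the growth hormone and STAT5 axis, Cyp2c29 (0.32), a member of a P450 family whose close paralogs may share reads, and Elovl3 were called higher. Il1rap was the 1 called gene of 28 in interleukin-1 and interleukin-6 receptor signalling. Among 20 pericentral hepatocyte genes, Cyp2c50 (0.19) was called. Called members were 0 of 20 among periportal genes, 0 of 28 in gluconeogenesis and glycolysis control, 0 of 79 cytosolic ribosomal proteins, 0 of 76 oxidative phosphorylation subunits, 0 of 44 interferon-stimulated genes and 0 of 23 cell cycle genes by edgeR's quasi-likelihood test. DESeq2 also called 0 in these lists. At an unadjusted p-value under 0.05 they held, in this order, 1, 1, 0, 2, 5 and 0 genes, beside 9.37% of all genes. Without fKO mice 2 and 3, the called list members Arntl, Cry2, Insig2, Baat, Gclc, Gc, 1 of the 2 Ddit3 identifiers and all 6 proteasome genes were no longer called (unadjusted p from 0.0154 for Gc to 0.221 for Arntl). Arntl went from 1.50 to 0.54 on the log2 scale, while Gc (0.13 to 0.12), Baat (0.15 to 0.14) and Insig2 (0.65 to 0.51) moved by less than a factor of 1.5.

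**Figure D4:**
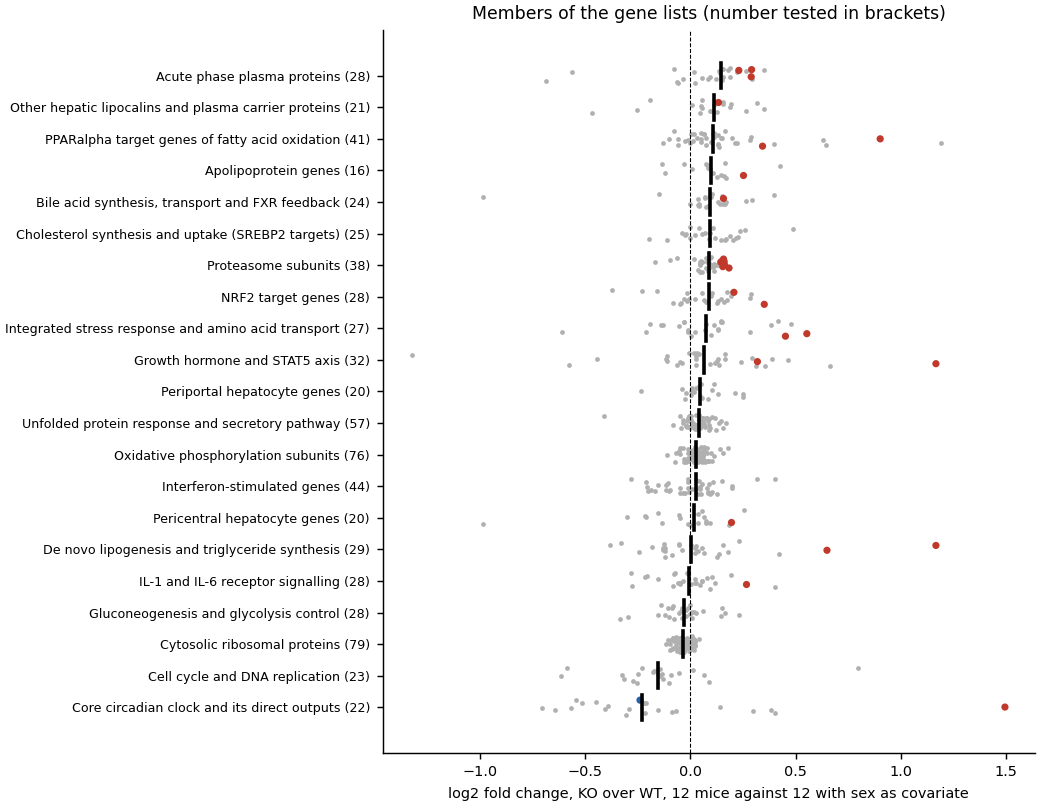
Each point is a tested member of one of the 21 lists, at its common log2 fold change on the horizontal axis and spread at random within its row, red if called higher, blue if called lower and grey if not called, with a black bar at the list's median and a dashed line at the median of all genes tested. Most list medians lie between −0.04 and 0.15, with the clock list at −0.23 and the cell cycle list at −0.16.

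Besides Zfp37, 3 called genes had an unadjusted interaction p-value under 0.01, with adjusted p-values of 0.727 for Glo1 and 0.803 for both others in edgeR's test. Beside Glo1, given above, these were the kinase Ripk4 and the fibroblast growth factor receptor Fgfr1, both lower in mKO mice. Fgfr1 ranged from 3.21 to 5.73 CPM in mKO and from 6.8 to 10.6 CPM in mWT mice, while fKO (median 4.28) and fWT mice (median 4.35) overlapped, with a female log2 fold change of −0.04 (unadjusted p = 0.841). Ripk4 ranged from 4.28 to 5.87 CPM in mKO and from 6.3 to 9.47 CPM in mWT mice, with medians of 6.79 CPM in fKO and 7.53 CPM in fWT mice. The common values were −0.46 for Fgfr1 and −0.39 for Ripk4, and after adjustment no difference between the sexes was called for either gene.

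The count of called genes stayed above 1% of the genes tested in every way of processing that was tried, with the lowest shares given above, 1.14% with the clock index and 1.34% without fKO mice 2 and 3. The count was 216 without fKO mouse 2, 468 without fKO mouse 5, and 319 with the Mup genes kept in the fit.

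**Figure D5:**
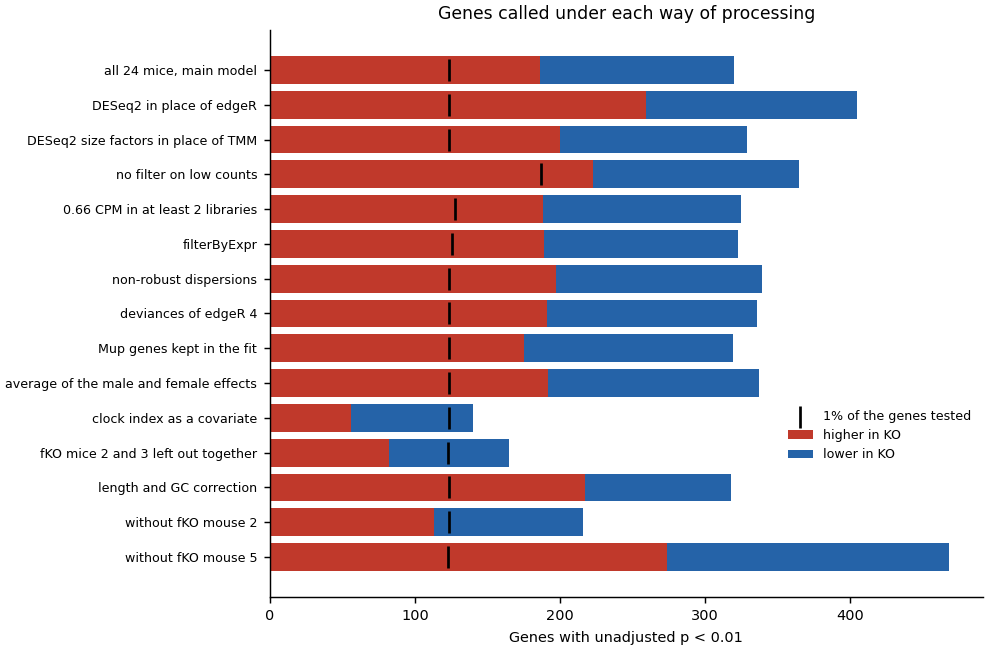
Bars give the number of genes with an unadjusted p-value under 0.01 for the common KO effect, split into higher (red) and lower (blue) in KO, for the reported model, for each alternative other than the replicate block, and for the omissions of a single mouse that gave the fewest and the most genes, with a black tick at 1% of the genes tested. The reported model gives 320 genes, the model with the clock index 140 and the model without fKO mice 2 and 3 gives 165.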

How the data were processed

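Liver RNA of 24 mice, 1 library per mouse, was sequenced in one multiplex after stranded mRNA library preparation. The authors used fastp 0.20 for trimming and STAR 2.7a for alignment to GRCm38.p6, and deposited raw counts per Ensembl gene from featureCounts, without normalization or filter. The annotation release, the strand setting and the handling of reads with several matches are not given in the sources used here. Gene symbols came from GENCODE M21 of GRCm38, which matched 25712 of 25746 identifiers.

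The 22 Mup rows were removed before library sizes. Genes that reached 0.66 CPM in 6 or more of 24 libraries were kept, scaled by TMM and fitted in edgeR 4.0.16 (R 4.3.3) with the quasi-likelihood test, robust dispersions, genotype and sex. A fit with 4 group means gave the effect in each sex and the interaction. The p-values weigh a difference between groups against the spread between mice. Groups came from the sample labels. Total counts per library were 15361901 to 26261394. The model was tested on simulated data in which genes varied independently and 200 were changed alike in both sexes. Variation shared between genes, as in the clock list, was not simulated, so the simulation does not check the reported counts.

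The gene lists, marker lists, comparisons and named genes were chosen with earlier results of these data known. Named genes were those of smallest unadjusted p-value until 12 higher and 12 lower ones were reached, called members of the lists, genes within 1 Mb of the cluster, up to 5 called genes with an interaction, the clock list, and a few genes chosen beforehand. Alternatives were DESeq2 1.42.0, its size factors, other filters, other dispersions and deviances, Mup rows kept, the mean of both sexes, the mouse number as a block, and each mouse left out. The clock index, the joint omission of fKO mice 2 and 3, and the length and GC correction were chosen after seeing the data. Figures were drawn with matplotlib 3.10.9.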

Additional observations from a re-analysis of the deposited data

Results flagged for a closer look

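For 32 of the genes named here, 128 groups of 6 mice were examined for a single mouse far from the others. The measure was the gap to the nearest mouse relative to the range of the group. Genes named only as members of the lists, the clock list among them, were not examined. Chance marks about 1 in 20 groups, here about 6.4, and 6 were marked. In the lower genes, mWT mouse 5 had 97.7 CPM of Nfic, with the next mouse at 78.2 CPM, and fKO mouse 1 had 12.8 CPM of Plekhg6, with the next at 8.88 CPM. Traf3ip1 was low in mWT mouse 1 at 7.83 CPM, with the next at 8.92 CPM, and in mKO mouse 6 at 5.29 CPM, with the next at 7.15 CPM. Glt28d2 was high in mKO mouse 5 at 7.88 CPM, with the next at 6.28 CPM. Cyp7a1 was high in mKO mouse 4 at 250 CPM, with the next at 115 CPM.

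Zfp37 stood out because its KO effect differed between males and females, with an adjusted p-value of 0.00572 for the interaction in edgeR's quasi-likelihood test. It was higher in 6 of 6 mKO mice than in all mWT mice and in 0 of 6 fKO mice than in all fWT mice.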

How the results depend on the processing

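Leaving out one mouse at a time gave 216 to 468 called genes, 113 to 274 higher and 98 to 194 lower, and 0 to 3 genes with an adjusted p-value under 0.05. Without fKO mouse 2 and likewise without fKO mouse 3, 113 genes were called higher against 186 with all mice. The count of genes without overlap in both sexes was 0 to 1 in these omissions. The clock index and the joint omission of fKO mice 2 and 3 gave 140 and 165 called genes, 56 and 82 higher, 84 and 83 lower, and the joint omission gave 473 genes with an interaction against 145. Past an adjusted p-value of 0.05 were 18 genes with DESeq2, 1 with the deviances of edgeR 4 (Zfp37), 3 with the Mup genes kept (Il1rap, Zfp37 and Spryd7), 1 with the average of both sexes (Zfp37), 2 with the clock index and 3 with the length and GC correction, against 0. The fits with the clock index and with the length and GC correction also used the deviances of edgeR 4. The log2 fold change of Arntl reversed to −0.24 with the clock index. Of the 24 leading genes, 13 kept an unadjusted p-value under 0.01 in all 37 alternatives, 10 in all but the clock index, and Hprt in all but the length and GC correction (unadjusted p = 0.0181). These genes were chosen by smallest p-value in the same mice, which favours such an outcome. The causes were not tested.

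The mouse numbers do not mark the same animal. The deviations of same-numbered KO and WT mice from their group means correlated at −0.337 to 0.169, no mouse correlated best with its own number, and the pairing was therefore not used. With the mouse number as a replicate block, 262 genes were called, of which 205 were among the 320, with 2 proteasome genes and 6 genes of the clock list. Depth limits genes near the floor of 0.114 to 0.195 CPM, such as Zfp37 and Mogat1 outside mKO mice.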

Other observations

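Genes of the peroxisome were among the called higher genes outside the lists, and were picked after their values were seen, so that they carry no test of the group. Crot, which prepares peroxisomal fatty acid products for export as carnitine esters, had a log2 fold change of 0.51 (0.72 in males and 0.30 in females). It ranged from 723 to 1240 CPM in mKO and from 300 to 677 CPM in mWT mice, without overlap, and from 496 to 1110 CPM in fKO and 507 to 707 CPM in fWT mice. Hacl1, the lyase of peroxisomal alpha-oxidation, was at 0.34, with 305 to 370 CPM in mKO and 199 to 302 CPM in mWT mice. The row Gm49387 had nearly the same values (0.33), and the 2 may share reads. Catalase (Cat), which breaks down hydrogen peroxide, differed by 0.15 at medians of 3130 CPM in mWT, 3670 CPM in mKO, 2350 CPM in fWT and 2510 CPM in fKO mice. The peroxisomal membrane gene Pxmp4 (0.19) had no overlap in males, and the acyltransferase genes Acnat1 (0.40) and Acnat2 (0.69) were called as well, the latter with medians of 9.27 CPM in mWT and 19.6 CPM in mKO, and of 84.3 CPM in fWT and 80.2 CPM in fKO mice. Each had an adjusted p-value of 0.321 to 0.341 in edgeR's quasi-likelihood test.

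Esrra, which encodes the estrogen-related receptor alpha and was also picked after its values were seen, had nearly equal effects in both sexes, −0.30 in males and −0.31 in females on the log2 scale. Esrra had medians of 15.5 CPM in mWT, 13.1 CPM in mKO, 14.3 CPM in fWT and 12.2 CPM in fKO mice, and its genotypes overlapped in both sexes. Clpx, a subunit of the mitochondrial ClpXP protease picked in the same way, was at 126 to 239 CPM in mKO and 61.4 to 124 CPM in mWT mice, without overlap. In females it ranged from 61.5 to 127 CPM in fWT (median 81.7) and from 62.6 to 224 CPM in fKO mice (median 77.7). Its log2 fold change was 1.03 in males and 0.46 in females.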
